A study of Mus musculus with 10 samples.

Results

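Alas2, Ank1, Car1, Car2, Epb42, Epor, Ermap, Fech and Gata1 are 9 genes of the red cell lineage that were read in RNA of spleen T cells. They were followed here through 10 libraries, as 9 of the 20617 genes of the deposited table. Spleen CD3+ T cells came from Nf1OPG mice, a neurofibromatosis type 1 optic glioma model. These mice carry an inactive Nf1 allele in every cell and a floxed Nf1 allele that GFAP-Cre removes in neuroglial progenitors, so that the T cells of both groups are Nf1+/- cells. Replicates 1 to 5 (PBS1 to PBS5) received PBS, the saline vehicle. Replicates 6 to 10 (OVA6 to OVA10) received chicken egg ovalbumin at 16 µg/mL in alum at 2 mg/mL, by intraperitoneal injection once a week for 2 weeks, followed by intranasal challenge as an asthma model. The asthma model runs from week 4 to week 6 of life, and the age at which these spleens were taken is not given in the sources used here. The paper's methods for spleen T cells describe red cell lysis and then isolation with CD4 and CD8a kits. They name no kit for the CD3+ cells that were sequenced. The labels do not say whether a library is 1 mouse, so the p-values measure the spread between these libraries.

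Red cells arise from progenitors that mature in bone marrow and, in adult mice, also in the spleen. The transcription factor Gata1 switches on the genes of this lineage, and Epor, the receptor of the hormone erythropoietin, keeps its progenitors alive. Maturing cells then make heme, beginning with Alas2 and ending with Fech, fill with globin and carbonic anhydrase, and build a membrane skeleton that Ank1 and Epb42 anchor to the anion exchanger Slc4a1. Mature T cells are not known as a main source of these transcripts, although Fech serves heme synthesis in every cell.

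In the deposited table, the gene names run out of step with the rows of values. The values of Alas2, Ank1, Car1 and Car2 were taken 3 rows above their names and those of Epb42, Epor, Ermap, Fech and Gata1 7 rows above. An alignment of row means with the annotation of the names, blind to treatment, gave the same distance for 9 of 9 genes, with probabilities between 0.949 for Car2 and 1.00 for Fech. It placed 89.7% of all rows with a probability above 0.9. At these rows, 8 of the 9 genes followed the mean of the other 8 over the 10 libraries with r above 0.8, and Alas2 did so with r = 0.63. Among distances of 0 to 10 rows, r was highest at the distance used for 8 of the 9. For Alas2 it was higher, 0.98, at 5 rows, a row that the alignment gave to the heme synthesis gene Alad. Other distances also gave a high r, such as 0.97 for Car2 at 8 rows. The distances were chosen with earlier results of these data known, so these r are descriptions. At the rows where the names stand, r lay between -0.64 and 0.61. The T cell transcription factor Gata3, listed near Gata1 and placed with a probability of 0.996, was read at 1460 to 1939 normalized counts in PBS and 1776 to 2396 in OVA libraries.

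RefSeq promoters of build GRCm38.p6 were given for 5 of the 9 genes, namely Alas2, Epb42, Epor, Ermap and Gata1. They are shown because GATA factors, of which Gata1 is one of the 9, bind DNA at GATA motifs. The search covered the 250 bases before the RefSeq start on both strands for GATA preceded by A or T and followed by A or G, which gives the words AGATAA with AGATAG, and TGATAA with TGATAG. Of the 5 windows, 4 held 1 match each, and 26.5% of all 32851 promoters held at least 1. No match stood in the Gata1 window. Matches are in capitals, each read on the opposite strand, and each sequence runs 5′ to 3′ along its gene and stops before the first base that lies in a GENCODE exon, which can be upstream of the RefSeq start. Distances are counted back from the last base printed. The Epor window is chr9:21963577-21963826 on the minus strand with its match beginning 54 bases from the end, and the Ermap window is chr4:119190012-119190245 on the minus strand with its match at 51 bases. For Alas2 the window is chrX:150547167-150547374 on the plus strand with the match at 44 bases, and for Epb42 it is chr2:121037073-121037127 on the minus strand with the match at 31 bases. A match is a description of the letters and was not tested as a binding site.
Epor: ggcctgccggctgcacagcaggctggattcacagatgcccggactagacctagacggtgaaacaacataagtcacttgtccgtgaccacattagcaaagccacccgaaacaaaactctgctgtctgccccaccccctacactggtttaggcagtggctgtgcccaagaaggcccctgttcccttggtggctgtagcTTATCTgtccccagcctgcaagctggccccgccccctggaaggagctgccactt
Ermap: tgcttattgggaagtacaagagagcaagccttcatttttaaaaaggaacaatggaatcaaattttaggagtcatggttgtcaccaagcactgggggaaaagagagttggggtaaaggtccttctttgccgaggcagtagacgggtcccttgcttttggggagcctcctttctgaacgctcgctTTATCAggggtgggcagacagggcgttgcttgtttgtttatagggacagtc
Alas2: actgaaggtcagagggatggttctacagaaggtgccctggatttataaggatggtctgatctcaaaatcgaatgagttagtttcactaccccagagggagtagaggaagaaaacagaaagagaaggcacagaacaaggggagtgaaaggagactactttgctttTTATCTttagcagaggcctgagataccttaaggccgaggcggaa
Epb42: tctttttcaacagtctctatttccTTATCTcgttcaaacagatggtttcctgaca

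Values are normalized counts, read counts divided by 1 size factor per library. Between 6835696 reads in PBS3 and 29915782 in OVA7 were recovered per library, and 1 read was worth 2.77 normalized counts in PBS3 and 0.626 to 1.20 in the others. A library's floor was taken as 3 reads, for counting error only. All 16 of 16 T cell marker genes were above it, with a summed level of 130893 to 259937 in PBS and 166614 to 226933 in OVA libraries, lowest in PBS3. Xist, the RNA of the inactive X chromosome of females, was at 4.30 or less in the 5 PBS libraries, at 3.60 in OVA9, and at 369 to 656 in the other 4 OVA libraries. Y-linked Ddx3y was at 393 to 1289 in PBS libraries, at 356 to 578 in OVA6 to OVA8, at 960 in OVA9 and at 0 in OVA10. Transcripts of both sexes were thus read in OVA6, OVA7 and OVA8, those of females in OVA10, and those of males in OVA9 and every PBS library. Whether OVA6, OVA7 and OVA8 mix RNA of several mice is not stated. The libraries of PBS and OVA may therefore not be the same kind of unit, and their spreads may not be comparable. Sex and treatment cannot be told apart in the results that follow, and OVA9 is the one OVA library that matches the PBS libraries in these genes.

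The 9 genes had lower mean log2 values in OVA than in PBS libraries, but none passed the test. Epb42, Car2, Car1 and Ank1 had the largest differences, from -2.27 to -1.33 on the log2 scale, and Fech the smallest at -0.38. High libraries stood in both groups: PBS3, PBS2 and OVA10 were the 3 highest for most genes, so that the groups overlapped for every gene. In bulk RNA, fewer cells of the lineage and less RNA per cell cannot be told apart.

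**Figure D1:**
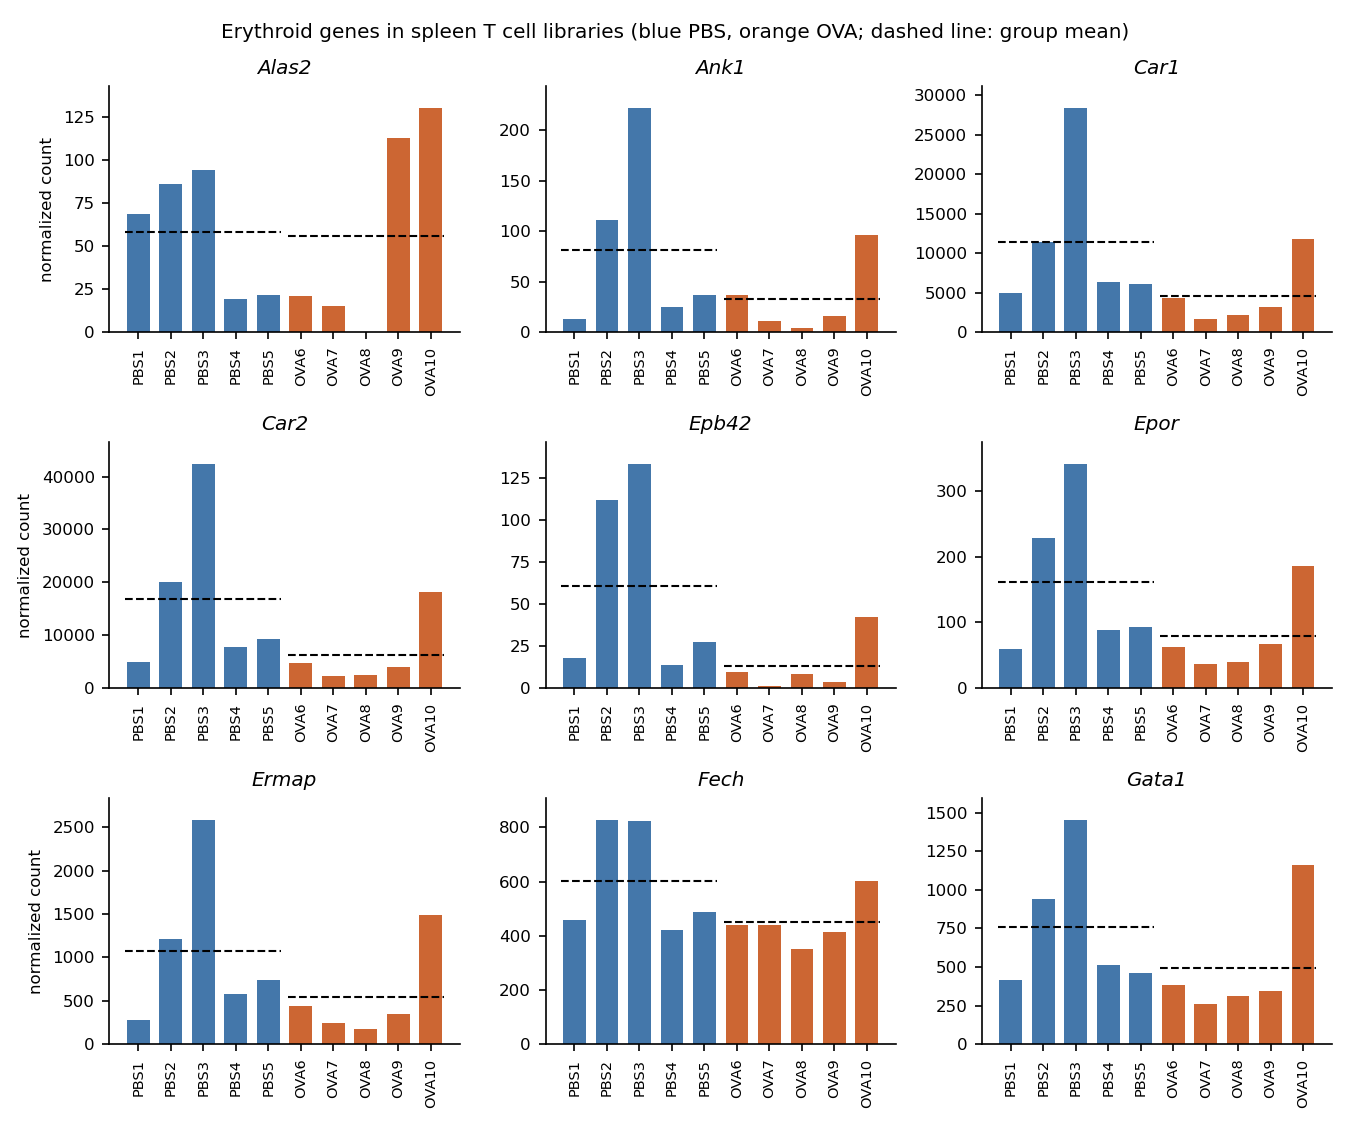
Normalized counts of the 9 genes (y axis, linear, from 0, a scale for each gene) in each of 5 PBS (blue) and 5 OVA (orange) libraries on the x axis, with dashed lines at the group means. PBS3 was highest for 7 of 9 genes, and OVA10 stood above the other OVA libraries for every gene.

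Gata1, the transcription factor that directs red cell and megakaryocyte development, lies on chromosome X (7959260 to 7978071, minus strand, mm10). It was read at 414, 941, 1451, 515 and 459 normalized counts in PBS1 to PBS5 and at 386, 261, 312, 347 and 1163 in OVA6 to OVA10. The 4 OVA libraries other than OVA10 were below every PBS library, and OVA10 was above all PBS libraries but PBS3. Group means were 756 ± 442 and 494 ± 377 (SD, n = 5 each), and the log2 difference of -0.68 ± 0.40 (SE) had a limma adjusted p of 0.60. Without OVA10 the difference was -1.05 and without PBS3 -0.40. Of its family, Gata3, a T cell factor, had a log2 difference of 0.31 (limma adjusted p = 0.45), and Gata2, a factor of early progenitors and mast cells, had one of 0.74 (limma adjusted p = 0.72), which was 0.36 by DESeq2.

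Epor, on chromosome 9 (21958897 to 21963506, minus strand), encodes the erythropoietin receptor. Its values were 59.0, 229, 341, 88.2 and 92.9 normalized counts in PBS1 to PBS5 and 63.0, 36.9, 39.8, 67.3 and 186 in OVA6 to OVA10. OVA7 and OVA8 were below all PBS libraries, while OVA6 and OVA9 exceeded PBS1. The log2 difference was -0.99 ± 0.50 (SE) with a limma adjusted p of 0.54, and -0.65 without PBS3.

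Heme synthesis is opened by Alas2, the erythroid 5-aminolevulinate synthase on chromosome X (150547375 to 150570638, plus strand). In PBS1 to PBS5 it was at 68.4, 86.1, 94.2, 19.4 and 21.7 normalized counts, and in OVA6 to OVA10 at 20.99, 15.0, 0, 113 and 130. OVA9 and OVA10 were its 2 highest libraries, whereas OVA9 was in the lowest 3 for 5 of the other 8 genes. No read was found in OVA8, which at this depth allows up to 2.84 normalized counts. The group means were 57.9 ± 35.4 and 55.8 ± 60.7 (SD, n = 5 each). Its log2 difference of -1.13 ± 1.05 (SE, limma adjusted p = 0.76) rested on that library: it was -0.02 without OVA8, and edgeR and DESeq2 on recovered reads gave -0.03 and -0.05.

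Fech, the ferrochelatase that inserts iron to complete heme, lies on chromosome 18 (64452914 to 64490251, minus strand). It varied least of the 9, with 460, 826, 823, 420 and 486 normalized counts in PBS1 to PBS5 and 439, 441, 353, 413 and 601 in OVA6 to OVA10. PBS2 and PBS3 were the high libraries, and the other 8 lay between 353 and 601. Its log2 difference was -0.38 ± 0.22 (SE) with a limma adjusted p of 0.59, and it was -0.25 without PBS2 or without PBS3.

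Car1 and Car2, the cytosolic carbonic anhydrases that interconvert carbon dioxide and bicarbonate, lie near each other on chromosome 3 (14766216 to 14808368, minus strand, and 14886273 to 14900770, plus strand). Car1 was at 4977, 11398, 28323, 6274 and 6081 normalized counts in PBS1 to PBS5 and at 4320, 1667, 2143, 3152 and 11790 in OVA6 to OVA10. Car2 was at 4917, 20140, 42316, 7696 and 9278 in PBS1 to PBS5 and at 4765, 2223, 2401, 4023 and 18243 in OVA6 to OVA10. For both genes OVA6 to OVA9 were below all PBS libraries, and OVA10 was exceeded by PBS3 and, for Car2, by PBS2 as well. Mean levels were 11410 ± 9775 in PBS and 4614 ± 4138 in OVA for Car1, and 16869 ± 15353 and 6331 ± 6745 for Car2 (SD, n = 5 each). The log2 differences were -1.35 ± 0.51 (SE, limma adjusted p = 0.39) for Car1 and -1.46 ± 0.59 (SE, limma adjusted p = 0.43) for Car2. Of the 8 other carbonic anhydrase genes placed and tested, 5 had a higher and 3 a lower mean log2 value in OVA, and none passed the test.

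The membrane skeleton was represented by Ank1, the ankyrin that ties spectrin to Slc4a1, on chromosome 8 (22974844 to 23150497, plus strand), and by Epb42, protein 4.2, which stabilizes that link, on chromosome 2 (121017891 to 121037072, minus strand). Ank1 was at 13.1, 111, 222, 24.7 and 37.0 normalized counts in PBS1 to PBS5 and at 36.7, 10.6, 3.79, 15.6 and 96.0 in OVA6 to OVA10. Only OVA7 and OVA8 were below all PBS libraries. The log2 difference of Ank1 was -1.33 ± 0.82 (SE, limma adjusted p = 0.61), and -0.80 without PBS3. Epb42 was at 17.8, 112, 133, 14.0 and 27.1 in PBS1 to PBS5 and at 9.75, 1.25, 8.53, 3.60 and 42.5 in OVA6 to OVA10. OVA6 to OVA9 were below all PBS libraries, with only 2 reads in OVA7 and 3 in OVA9. Its log2 difference of -2.27 ± 0.79 (SE, limma adjusted p = 0.35) was the largest of the 9.

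Ermap, an erythroid membrane protein of the immunoglobulin superfamily, lies on chromosome 4 (119175457 to 119190011, minus strand). It was at 280, 1213, 2581, 577 and 739 normalized counts in PBS1 to PBS5 and at 442, 238, 175, 351 and 1489 in OVA6 to OVA10. OVA10 exceeded 4 of the 5 PBS libraries, and PBS1 was below OVA6 and OVA9. The log2 difference was -1.05 ± 0.57 (SE, limma adjusted p = 0.58), and -0.64 without PBS3.

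Across the 20249 rows tested, those whose mean reached 1 normalized count, 45.5% had a log2 difference below 0, against 9 of 9 for these genes, which share libraries and are not independent. Their median difference was -1.13 and that of all rows 0.04. Scaling every library to the same total moved the median of all rows to 0.15 and the share below 0 to 33.0%, with 9 of 9 genes still below 0. At a limma adjusted p under 0.05, 0.00494% of rows and 0 of 9 genes were called. At an unadjusted limma p under 0.05, 2.65% of rows were lower in OVA, and so were Car1 (0.019), Car2 (0.025) and Epb42 (0.013). At an adjusted p under 0.05, edgeR on recovered reads called 0 of 9 genes and 0.00988% of rows, and DESeq2 0 of 9 and 0.894%. At an unadjusted p under 0.05, 3 of 9 genes and 3.06% of rows were lower in OVA by edgeR, and 2 of 9 and 3.45% by DESeq2. The exact two-sided permutation test over all assignments of 5 and 5 libraries, which can reach 0.0079, gave unadjusted p-values from 0.056 for Epb42 to 0.56 for Alas2. For 6 of the 9 genes the 95% interval of the difference included 0, from -3.38 to 1.12 for Alas2 and from -0.85 to 0.08 for Fech, so that neither a difference of these sizes nor its absence was shown.

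**Figure D2:**
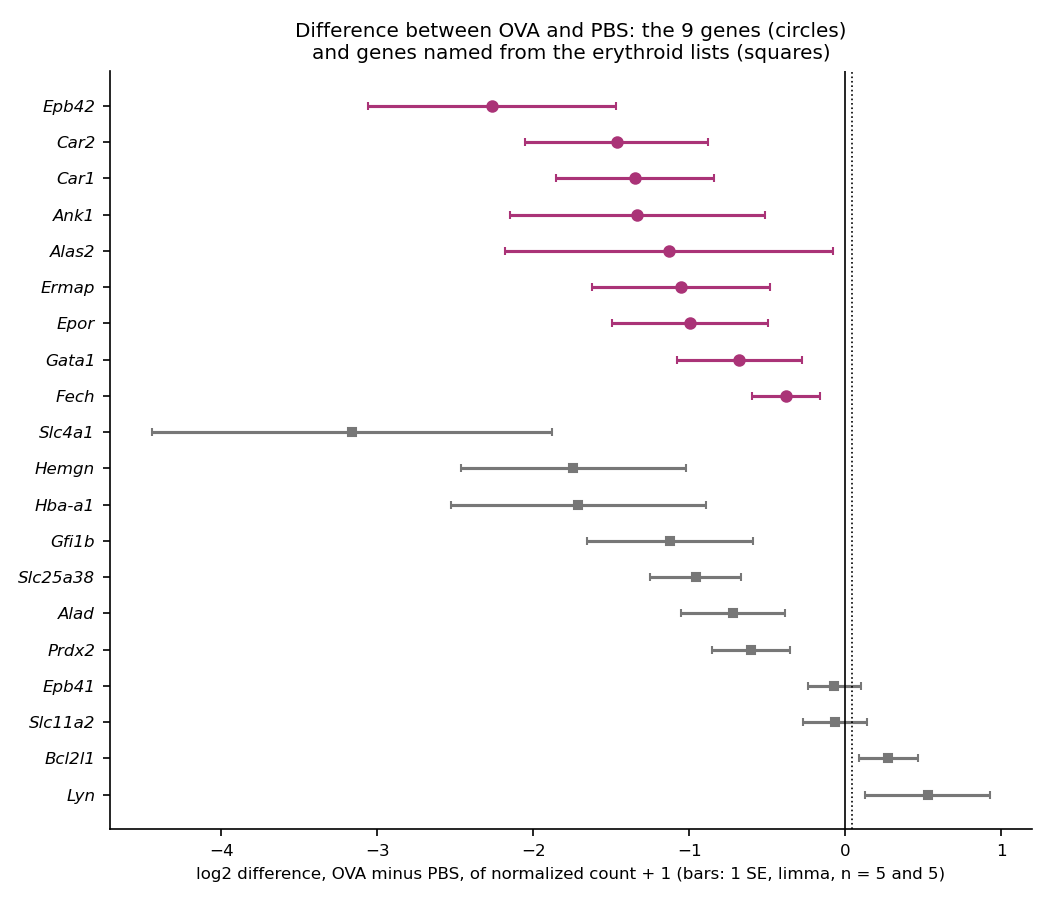
Log2 difference (x axis, OVA minus PBS, of normalized count + 1) of the 9 genes (circles) and of 11 genes named from erythroid lists (squares), with bars of 1 SE from limma over 5 and 5 libraries. The solid line marks 0 and the dotted line the median of all rows at 0.04, and the 9 genes lie between -2.27 and -0.38.

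The groups did not overlap for 0 of 9 genes, and for 0.356% of all rows with OVA below PBS. Leaving out OVA10 separated them for 4 of 9, namely Car1, Car2, Epb42 and Gata1, against 1.27% of rows, and their limma adjusted p-values were then between 0.18 and 0.25. OVA10 stood above the other OVA libraries for every gene, so leaving it out could only favour separation. Without PBS3 instead, 0 of 9 separated, which was fixed beforehand because PBS3 was not the lowest PBS library for any gene. The log2 differences of Car1, Car2, Epb42 and Gata1 without PBS3 were -0.94, -1.02, -1.84 and -0.40. OVA9, which matched the PBS libraries in Xist and Ddx3y, was below every PBS library for 5 of 9 genes: the same 4 and Fech. For Alas2 it was above every PBS library, at 113 against 94.2 or less, and for Ank1, Epor and Ermap it lay within the PBS range. It was below every PBS library in 12.2% of all rows. With 1 such library no test was possible.

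To order the 9 genes by level, normalized counts were divided by the length of the longest annotated transcript. Car1 and Car2 averaged 6710 and 6488 normalized counts per kb, with Car1 above Car2 in 7 of 10 libraries. Gata1 followed at 329 and Ermap at 178, and both steps in the order held in 10 of 10 libraries. Fech averaged 80.1 and Epor 68.3 per kb, with Fech above Epor in 7 of 10. Alas2 averaged 27.9, Epb42 8.97 and Ank1 6.82 per kb, and Epb42 was above Ank1 in 6 of 10 libraries. Neighbours in this order other than Car2 to Gata1 and Gata1 to Ermap thus exchanged places in some libraries.

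The spread between libraries of one group was wide for most of the 9. The within-group SD of log2 values was 0.39 for Fech, 0.81 for Gata1, 0.98 for Epor, 1.06 for Car1, 1.19 for Ermap and 1.23 for Car2, and the median over all rows was 0.49. It was 1.54 for Epb42, 1.63 for Ank1 and 2.15 for Alas2. From the lowest to the highest library, Ank1 differed 58.4-fold, with 4 reads in its lowest, Car2 19.0-fold, Car1 17.0-fold, Ermap 14.7-fold, Epor 9.22-fold, Gata1 5.56-fold and Fech 2.34-fold. No fold is given for Alas2 and Epb42, whose lowest libraries were at 3 reads or fewer. Much the same libraries were high or low for different genes: PBS3 ranked in the top 3 for 9 of 9 genes, OVA10 for 9 and PBS2 for 8, and OVA8 in the lowest 3 for 9 and OVA7 for 8.

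On the log2 scale and over 10 libraries, the 28 pairs of genes without Alas2 had Pearson r between 0.83 and 0.99. The 8 pairs with Alas2 had r between 0.43 and 0.69. Each of the 8 genes other than Alas2 followed the mean of the others with r between 0.88 for Epb42 and 0.99 for Car2, and between 0.85 and 0.99 after removal of the group means. Leaving out PBS3 and PBS2, the libraries farthest from the median, left r between 0.74 for Epb42 and 0.98 for Car2. These correlations are descriptions over libraries that share treatment, sex-linked transcripts and depth.

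The 4 adult globin genes placed here, Hba-a1, Hba-a2, Hbb-bs and Hbb-bt, which encode the chains of hemoglobin, summed to 6225, 15176, 12867, 2787 and 2777 normalized counts in PBS1 to PBS5. In OVA6 to OVA10 they summed to 2158, 646, 427, 9180 and 9202. OVA9 was high in globin and Alas2 but low in Car2, and PBS5 was low in globin and Alas2 but ranked 4 of 10 in Car2. Over the 10 libraries the log2 globin sum had r = 0.91 with Alas2 (Spearman rho = 0.85) and r = 0.78 with Car2 (rho = 0.81), and Alas2 had r = 0.62 with Car2 (rho = 0.61). Near-identical copies in both globin pairs may share reads, so that their sum was used.

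**Figure D3:**
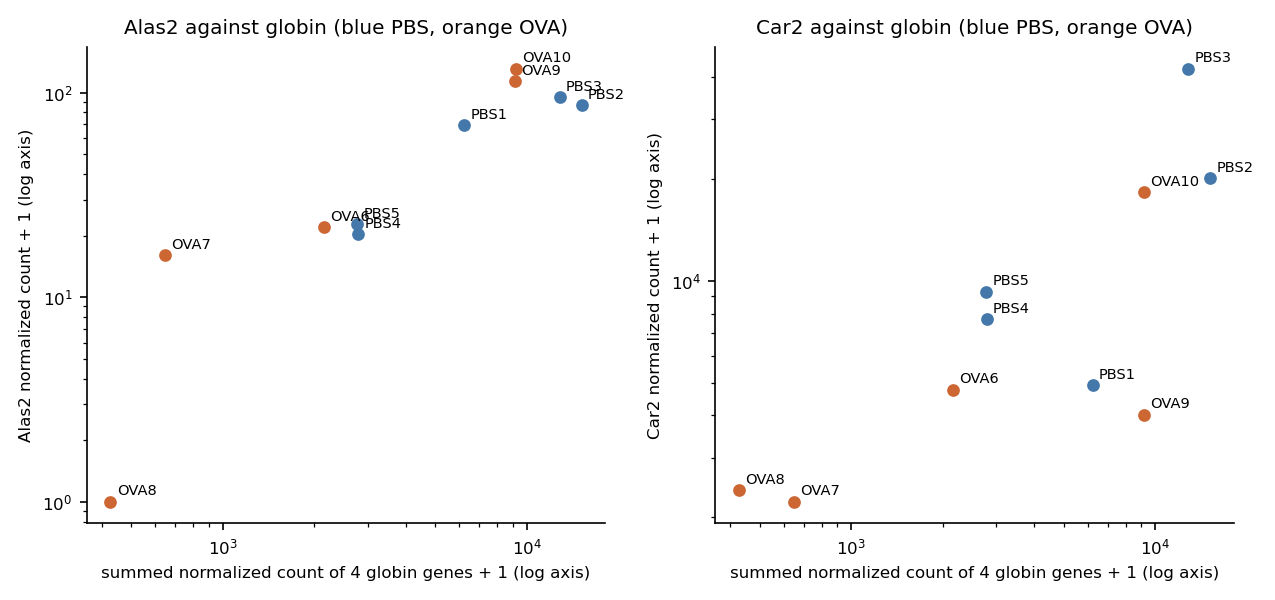
Alas2 (left) and Car2 (right) in normalized counts + 1 against the summed normalized counts + 1 of 4 globin genes, on log axes, for 5 PBS (blue) and 5 OVA (orange) libraries. OVA9, with a globin sum of 9180, lies among the high libraries for Alas2 at 113 and among the low ones for Car2 at 4023.

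The wider erythroid program was read from 7 lists of 65 genes that left out the 9 genes above. Of these, 53 could be placed with a probability above 0.9 and tested: 44 had a lower and 9 a higher mean log2 value in OVA, against 45.5% lower among all rows. The median difference of the 53 was -0.56. By limma 0 of the 53 passed the adjusted test and 0 did by edgeR or DESeq2. At an unadjusted limma p under 0.05 there were 13 of the 53, against 9.77% of all rows, and 12 of these were lower in OVA, against 2.65%. The 53 genes share libraries and are not independent, and their lists were chosen with earlier results of these data known. These counts are therefore descriptions and no test of the lists. The median r of the 53 with the mean of the 9 genes was 0.83. It was -0.04 over 13312 placed rows with a mean of at least 10, a minimum that was not set for the 53.

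Among 6 further enzymes of heme synthesis, 5 were lower and 1 higher in mean, with a median log2 difference of -0.49. Alad, which joins the product of Alas2 into a pyrrole, averaged 1967 ± 968 in PBS and 1205 ± 690 in OVA (SD, n = 5 each), with a log2 difference of -0.72 (limma adjusted p = 0.50). The one with a higher mean was Alas1, the housekeeping form of the first enzyme, at 0.32 (limma adjusted p = 0.49), and its r with the mean of the 9 was -0.05.

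Iron uptake and mitochondrial transport gave 7 of 7 genes with a lower mean, with a median of -0.56. Slc25a38, the mitochondrial glycine carrier that feeds heme synthesis, averaged 397 ± 144 and 206 ± 90.5 (SD, n = 5 each) and had a log2 difference of -0.96 (limma adjusted p = 0.29), the lowest adjusted p of the 53. Slc11a2, an iron transporter also used in other tissues, was at -0.06 (limma adjusted p = 0.94). The transferrin receptor Tfrc was at -0.45 (limma adjusted p = 0.82), and at -0.82 by DESeq2.

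The membrane and skeleton list had 14 of 14 genes with a lower mean and the largest median except for globin, -1.26. Slc4a1, the anion exchanger to which Ank1 and Epb42 bind, was at 26.2, 207, 354, 7.53 and 65.9 in PBS1 to PBS5 and at 8.996, 11.9, 0, 0 and 154 in OVA6 to OVA10. OVA10 again stood with the high PBS libraries, and the log2 difference was -3.16 ± 1.28 (SE, limma adjusted p = 0.44). With no read in OVA8 and OVA9 this value depends on the pseudocount, and DESeq2 on recovered reads gave -1.91. Epb41, protein 4.1, which many tissues use, was at -0.07 (limma adjusted p = 0.92), and at -0.11 by DESeq2. The 4 globin genes were lower in mean in 4 of 4, led by Hba-a1 at -1.71 (limma adjusted p = 0.52). DESeq2 gave -1.24 for Hba-a1, -0.67 for Hba-a2, -0.74 for Hbb-bs and -0.39 for Hbb-bt. Near-identical copies may share reads, so that the 4 are not independent.

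Of 9 further transcription factors, 8 were lower and 1 higher in mean, with a median of -0.26. Gfi1b, a repressor that acts in red cell and platelet precursors, averaged 822 ± 673 and 381 ± 369 (SD, n = 5 each), at a log2 difference of -1.12 (limma adjusted p = 0.51). Of the 6 red cell enzymes and late genes, 4 were lower and 2 higher in mean. Prdx2, an abundant peroxide-removing enzyme of red cells, was at -0.61 (limma adjusted p = 0.44), and Hemgn, a nuclear protein of blood cell precursors, at -1.74 (limma adjusted p = 0.45). The signalling genes downstream of Epor, shared with many blood cells, had a higher mean in 5 of 7, with a median of 0.06. Among these, Lyn, a Src family kinase, was at 0.53 (limma adjusted p = 0.69) and Bcl2l1, a survival gene, at 0.28 (limma adjusted p = 0.65).

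**Figure D4:**
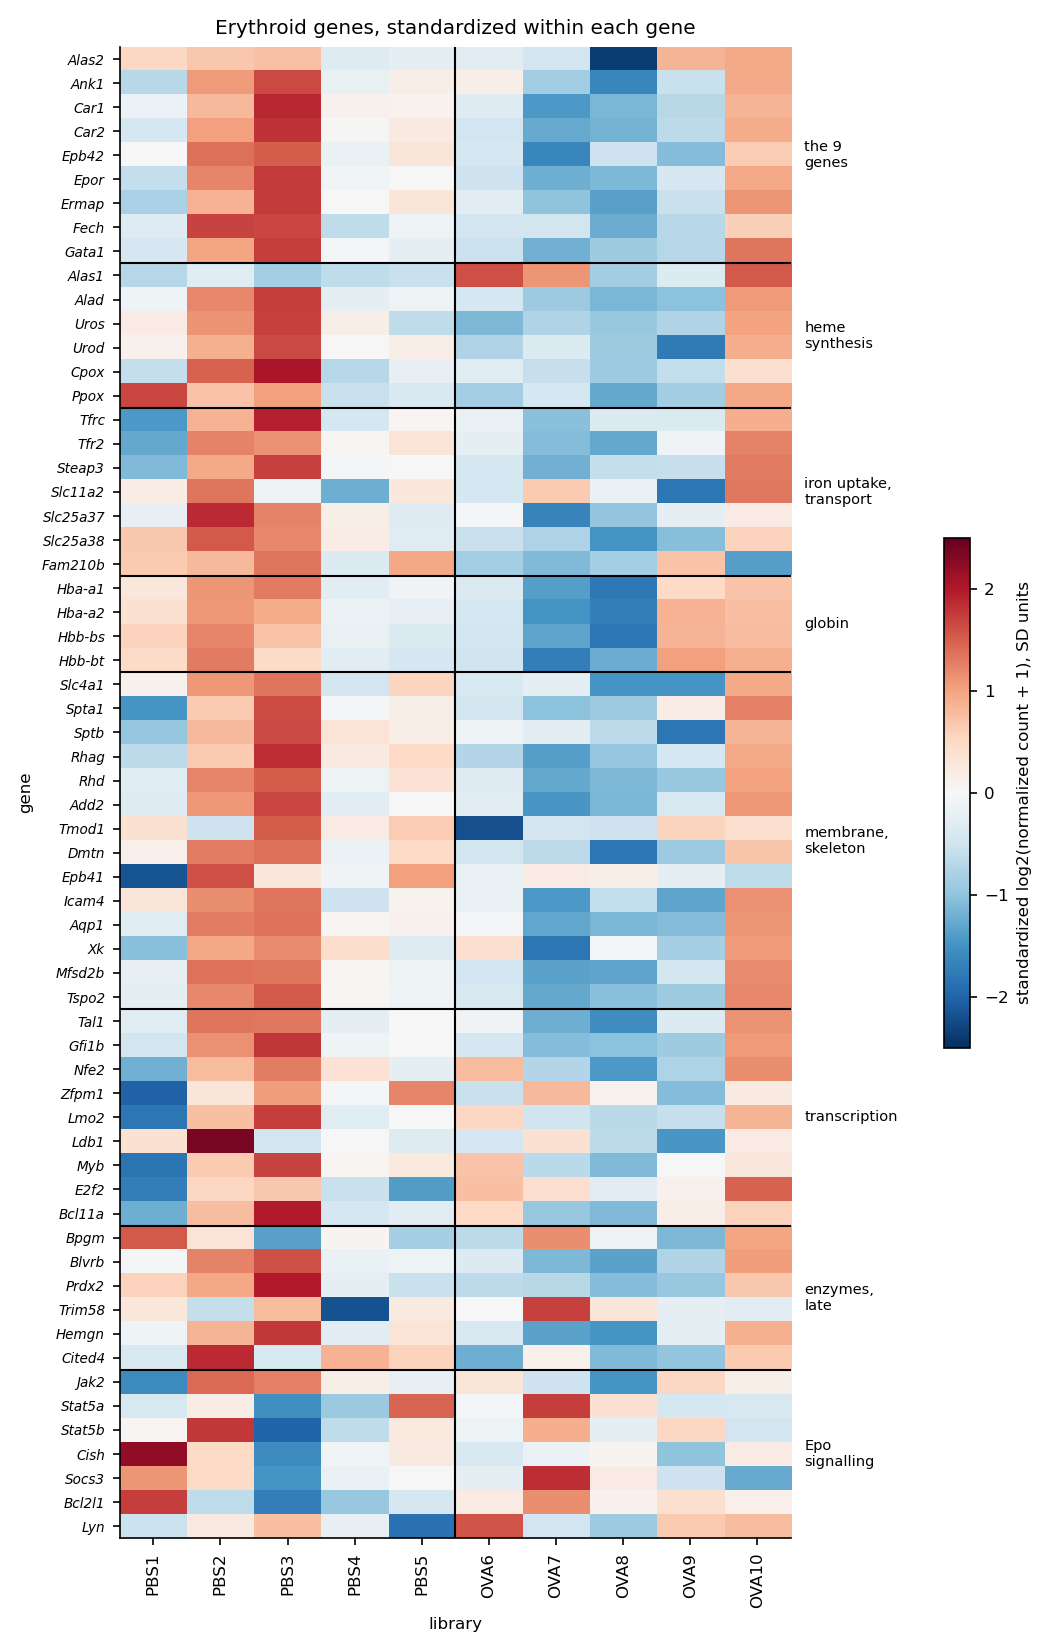
Log2 values of the 9 genes (top block) and of 53 further erythroid genes (rows, in blocks by list), standardized within each gene in SD units, in 5 PBS and 5 OVA libraries (columns, split by the black line). PBS2, PBS3 and OVA10 are red in the top block, where PBS3 ranks in the top 3 for 9 of 9 genes. The bottom block of signalling genes had a median r of -0.30 with the mean of the 9 genes, although Jak2 had 0.74.

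The rows most like the mean of the 9 were sought among 13312 other rows with a mean of at least 10 and a placement probability above 0.9. The 10 with the highest r were Lmna (r = 0.99), Bex4, Blvrb, Add2, Pck2, Slc38a5, Gfi1b, Cox6b2, Cldn13 and Mfsd2b (r = 0.98). Of these, 4 were on the erythroid lists, and 0.924% of the rows compared had r above 0.9. In these 10 the log2 difference lay between -1.97 for Cldn13 and -0.47 for Pck2, and none passed the test.

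Markers of other cells were summed in the same libraries. Gata1 is also known from megakaryocytes and mast cells: the summed level of 7 placed megakaryocyte and platelet genes of 9 was 193 to 479 in PBS and 159 to 376 in OVA libraries, with r = 0.52 with the mean of the 9 genes. For 7 of 8 mast cell and basophil genes it was 751 to 2211 and 1045 to 2523, with r = 0.47. Macrophage genes (7 of 8) summed to 188 to 918 and 151 to 995, with r = 0.64, and proliferation genes (8 of 8) to 6358 to 20078 and 8488 to 15970, with r = 0.60 and highest in PBS3. B cell genes (8 of 8) summed to 752 to 2487 and 796 to 7370, and neutrophil genes (7 of 8) to 7142 to 24159 and 10531 to 98593. Both sums were highest in OVA6 and had r of -0.02 and 0.10. All 8 B cell and 7 neutrophil genes had a higher mean log2 value in OVA, with median log2 differences of 1.63 and 1.36. By limma and edgeR 0 of them passed the adjusted test, and DESeq2 called 2 in each list, against 0.894% of rows. The mean was also higher for 7 of 8 proliferation, 5 of 7 mast cell and basophil, 4 of 7 macrophage and 3 of 7 megakaryocyte and platelet genes. T cell genes had r = -0.62 with the mean of the 9, and 9 of 16 had a higher mean log2 value in OVA. Spearman rho with the mean of the 9 was 0.28 for proliferation, 0.28 for mast cell and basophil and -0.41 for T cell genes. It was 0.58 for macrophage, 0.49 for megakaryocyte and platelet, -0.27 for B cell, 0.07 for neutrophil and -0.42 for stromal genes. Stromal genes (4 of 8) summed to 5.16 to 47.1 in PBS and 63.5 to 99.7 in OVA, without overlap, with r = -0.37. Over all rows, 288 of 20249 did not overlap with OVA above PBS. The stromal list holds Dcn, which the paper reported as higher in OVA from these libraries, so its separation is not independent of that result. Pdgfrb was its highest gene. Of the 4 genes, 3 had a higher mean log2 value in OVA, and Igfbp7 a lower one (-0.24). No gene of these lists was at or under 3 reads in all libraries, and their part in the differences of the 9 genes was not tested.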

How the data were processed

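Spleen CD3+ T cell RNA was sequenced in 5 PBS and 5 OVA libraries, grouped by the treatment label. Per the labels and methods, the authors demultiplexed reads with bcl2fastq, aligned them with STAR 2.6.1d to Ensembl release 99 (mm10), counted genes in Partek Flow 9.0 and divided counts by median-ratio size factors. The deposited signal is therefore normalized counts. Dividing each library by its smallest step gave whole reads for at least 99.9% of values (tolerance 0.1). With 1 size factor per library, each value is relative to the rest of its library. No column was left out, and the stated end positions, 1 base past the last, were reduced by 1.

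Names were matched to rows with a hidden Markov model over distances of -10 to 40 rows (15 rounds, 10 expression bins), using GENCODE M21 annotation and row means. The main test was limma 3.58.1 in R 4.3.3 with a variance trend on log2(normalized count + 1), over rows with a mean of at least 1, with Benjamini-Hochberg adjustment. The pseudocount shrinks ratios of low values, whereas a library at 0 can enlarge a difference of mean log2 values, as for Alas2 and Slc4a1. Alternatives were edgeR 4.0.16 and DESeq2 1.42.0 on recovered reads, other pseudocounts, minimum means and scalings, each library left out, and names as listed. Both the alignment and the fits were tested on simulated data. The study used DESeq2. Here the deposited unit made limma the main test.

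The 9 genes, their row distances and the gene lists were chosen with earlier results of these data known. Named genes were the 9 and, from each list, any gene with an adjusted p under 0.05, otherwise the most abundant gene and that with the largest difference among those with a mean of at least 10. Others named, such as Alas1 and Tfrc, were chosen after their values were seen. Of the erythroid lists, 2 genes are not reported here and enter none of their counts.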

Additional observations from a re-analysis of the deposited data

Results flagged for a closer look

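In 15 of 40 groups of 5 libraries, over the 9 genes and those named from the erythroid lists, the gap in normalized counts of 1 library to its nearest neighbour took more of the group's range than Dixon's 95% critical value of 0.71. Chance gives such a gap in about 1 in 20 groups of normally distributed values, and the genes are not independent. These flags depend on the linear scale: on the log2 scale, tried after seeing the data, 3 of 40 groups passed, namely OVA10 for Gata1 (0.738) and Prdx2 (0.761) and OVA7 for Bcl2l1 (0.721). In normalized counts, OVA10 was the highest OVA library in 11 of the 15, with a gap ratio of 0.738 for Car1, 0.841 for Car2, 0.794 for Epb42, 0.796 for Epor, 0.797 for Ermap and 0.861 for Gata1. The same library stood apart among OVA libraries for Alad (0.793), Slc4a1 (0.923), Gfi1b (0.854), Prdx2 (0.819) and Hemgn (0.782). PBS3 stood apart among PBS libraries for Car1 (0.725) and Hemgn (0.731). Bcl2l1 differed in kind, with PBS1 (0.714) and OVA7 (0.747) as the highest libraries of their groups.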

How the results depend on the processing

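The 9 genes had a log2 difference below 0, and 0 of 9 passed an adjusted p of 0.05, in each of 18 alternatives with realigned names (limma, edgeR or DESeq2). For Alas2 that difference was close to 0 in some of them: -0.02 without OVA8, -0.03 by edgeR and -0.05 by DESeq2. The erythroid list genes likewise stayed at 0 calls, with 41 to 46 of 53 lower and a median log2 difference between -0.78 and -0.40. The count of all rows past the threshold, 1, was 0 with a pseudocount of 0.1 and with quantile normalization, 2 by edgeR, 167 by DESeq2, and 0 to 135 with each library left out, the highest without PBS5. Genes whose groups did not overlap numbered 0 to 4 with each library left out, the highest without OVA10. When names were left in their own rows, 3 of the 9 genes and 28 erythroid list genes were lower, the list median was 0.0077, and 6 genes turned: Alas2 to 0.0015, Ank1 to 0.12, Car2 to 0.28, Ermap to 0.43, Fech to 0.99 and Gata1 to 0.020 on the log2 scale. Those rows hold other genes by the alignment. Alas2 in OVA8 and Epb42 in OVA7 and OVA9 rested on 3 reads or fewer, although OVA7 was the deepest library. No paired analysis was possible because replicates 1 to 5 and 6 to 10 share no number.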
